A study of Mus musculus with 278 samples.

Results

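Basal-marked cells of the pregnant mouse mammary gland were compared with basal-marked cells of the adult gland, using RNA-seq counts of single cells. A cell was called basal-marked when at least 6 of 10 basal genes (Krt14, Krt5, Krt17, Acta2, Myh11, Mylk, Cnn1, Tagln, Myl9 and Tpm2) reached 50 CPM (a gene's reads scaled to a common total per cell). Cells entered with 50000 or more reads and 1000 or more detected genes, after mitochondrial, ribosomal and unnamed genes had been removed. Of the 278 cells in the series 222 were retained, and the 2 sets compared held 64 of 96 retained pregnancy cells (66.7%, interval 56.3 to 76.0) and 81 of 85 retained adult basal cells (95.3%, 88.4 to 98.7). For comparison, 1 of 41 retained adult luminal cells was basal-marked (2.44%, 0.0617 to 12.9).

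All cells came from FVB/NJ mice, without treatment, and were caught by the Fluidigm C1, a microfluidic device in which every chamber takes 1 cell and yields amplified cDNA. The adult cells had been sorted as basal (Lin–CD29hiCD24+, where Lin– means free of the erythroid, endothelial and leukocyte surface markers Ter119, CD31 and CD45), whereas the pregnancy cells are labelled total epithelium with no gate given. Elsewhere the study gates total epithelium as Lin–CD24+, and whether the pregnancy cells passed that gate is not stated in its methods. The study places them at mid-pregnancy, whereas the labels give no day or age. Stage, sort and capture thus cannot be told apart. As the labels name no animal, a group is 1 sample however many cells it holds: no test could be made, and no difference has a replicate check. The sorted adult cells were themselves taken by a basal gate before the rule was applied, and the pregnancy cells were chosen by the rule alone.

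Depth and library features bear on the values below. The adult cells had between 67299 and 1292391 reads (median 382793, 34578393 in all), and the pregnancy cells between 54376 and 790575 (median 209024, 15591555 in all). When all cells were thinned to 50000 reads, the median cell had 2298 detected genes in the adult (range 929 to 4175) and 3326.5 in pregnancy (1860 to 5869). An earlier look at these data found that the pregnancy cells differ across title number 55, although the labels name nothing that divides there. The 31 basal-marked cells numbered up to 55 and the 33 numbered above 55 are therefore given apart beside many of the results. The lower-numbered cells had more genes (median 3917 against 2878), 17 of them against 2 carried 3 or more of 10 cycling markers, and 10 against 4 carried 3 or more markers of a cell type outside the epithelium. Among all 64 pregnancy cells the last count was 14 (21.9%, 12.5 to 34.0), against 1 of 81 adult cells (1.23%, 0.0313 to 6.69). It was 10 of the 32 pregnancy cells that were not basal-marked (31.25%, 16.1 to 50.0). The study's authors viewed captured cells under the microscope, no doublet caller was run here, and whether a chamber held more than 1 cell was not tested. No 2 cells held identical counts. Intervals are exact at the 95% level (Clopper-Pearson for shares, conditional for ratios). Those for shares take the cells of a group as independent, and those for ratios take the reads as independent. PCR copies without molecular identifiers are not independent molecules, so the intervals of ratios understate even the error of counting. No interval covers the spread between cells in a ratio or between animals.

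The mammary epithelium has an outer basal layer, made largely of myoepithelial cells, and an inner luminal layer. Myoepithelial cells carry keratins 5 and 14 together with the actin and myosin of smooth muscle, lie on the basement membrane, and contract in response to oxytocin to eject milk. During pregnancy the luminal layer forms alveoli whose cells take up the synthesis of milk proteins and fat under prolactin, acting through its receptor, JAK2 and STAT5. The comparison addresses which basal and which secretory transcripts differ between basal-marked cells of both stages.

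The basal label was first held against basal genes. The 3 defining markers (Krt14, Acta2 and Myh11), detected in 63 or more of the 64 pregnancy and 80 or more of the 81 adult cells after thinning, are themselves rule genes, so that their detection follows from the choice of cells. Of basal genes outside the rule, Col17a1, a hemidesmosome collagen, was detected in 67 of 81 adult and 44 of 64 pregnancy basal-marked cells, in 1 of the 32 pregnancy cells that were not basal-marked and in 2 of 41 adult luminal cells. Trp63, which encodes the basal factor p63, was detected in 37 and 31 basal-marked cells, in 0 of the 32 (which allows a share of up to 9.38%) and in 2 of the 41. All 10 rule genes reached 50 CPM in 28 pregnancy and 66 adult cells. Just inside the threshold lay 1 pregnancy cell with 6 rule genes, number 105, with 574 CPM of Acta2 and 23.7 CPM of Krt14, and 4 with 7. On the adult side 1 cell had 6 rule genes and 1 had 7. The adult cell with 6, number 49, had no keratin reads, 9541 CPM of Myh11, 17757 CPM of Mylk and 3 pericyte or vascular smooth muscle markers. Just outside were 1 pregnancy cell with 4 rule genes and none with 5, and 2 adult cells with 4 and 2 with 5.

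The 10 genes that chose the cells are given as a description. Summed over cells, 9 of the 10 were lower in pregnancy and 1 was higher. Krt17 and Krt5, keratins of the basal layer, stood lowest. Krt17 was at 3082 CPM in adult and 455 CPM in pregnancy cells (log2 ratio -2.76, interval -2.79 to -2.72), and its lowest, median and highest cells were 0, 2662 and 10151 CPM in the adult and 0, 296 and 5792 CPM in pregnancy. Krt5 was at 512 CPM in adult and 117 CPM in pregnancy cells (log2 ratio -2.13) and Krt14 at 3213 CPM in adult and 1042 CPM in pregnancy cells (-1.62). The genes of the contractile filament spread from Tpm2, a tropomyosin (-1.73), and Tagln, transgelin (-1.45), over Cnn1, calponin (-1.25), to the smooth muscle actin Acta2 (-0.73), the myosin heavy chain Myh11 (-0.71) and the light chain Myl9 (-0.66). Acta2 was detected in every basal-marked cell of both stages, with 1462, 9763 and 38751 CPM in the lowest, median and highest adult cell and 310.5, 6104 and 33006 CPM in pregnancy. Mylk, the kinase that switches on smooth muscle myosin, was the gene that was higher, at 2438 CPM in adult and 2808 CPM in pregnancy cells (log2 ratio 0.20, 0.19 to 0.22). The cells of both stages overlapped for each of these genes.

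**Figure D1:**
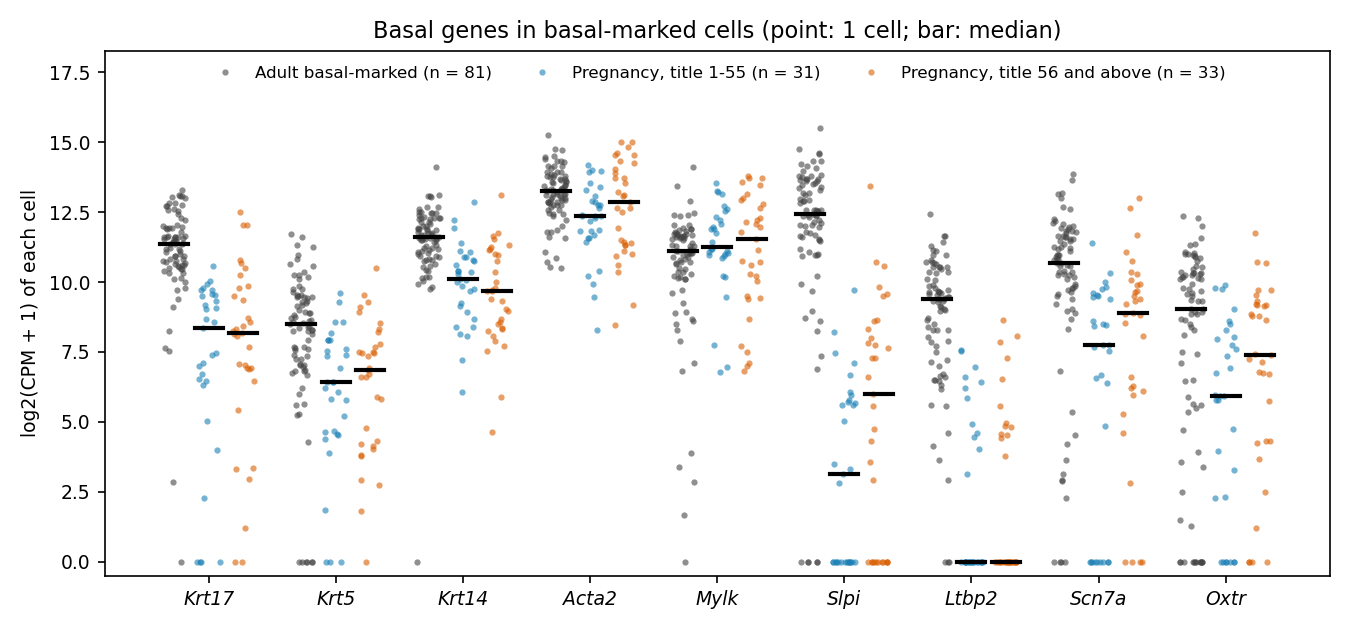
Level of 9 basal genes in single basal-marked cells, as log2(CPM + 1), in 81 adult cells, 31 pregnancy cells with title numbers up to 55 and 33 with higher numbers. Each point is 1 cell and each bar a median; the median pregnancy cell lies below the median adult cell for Krt17 (296 against 2662 CPM over all 64) and Slpi (22.4 against 5529 CPM) and above it for Mylk (2591 against 2195 CPM).

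Across the 13618 genes with a ratio, the log2 ratio of pregnancy over adult had a median of -0.21 (quartiles -1.01 and 1.10), and ratios below are to be read against this median. It was 0.11 for cells numbered up to 55 and -0.62 for those above, the background for values by block. Genes that differed 4-fold or more, with at least 10 CPM on the higher side, numbered 815 higher (5.98% of the genes tested) and 705 lower (5.18%). Of these, 523 and 389 passed 4-fold in the same direction in each block of title numbers, and 41 of the higher and 0 of the lower genes had the opposite sign in a block. No adult read was found for 153 of the higher genes and no pregnancy read for 9 of the lower ones. The 8 milk genes took 21.6% of the pregnancy reads. Leaving them out of the totals raised every log2 ratio by 0.35, which put the median of all genes at 0.14, so small ratios below change sign with that choice. Genes without a read in a group entered at a floor of 3 reads over the group, and their ratios are bounds. In the lists that follow, 4-fold counts are to be set beside these 2 percentages, and the rule genes and milk genes are left out. Genes named as lowest or highest of a list are those whose higher group had at least 50 CPM.

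The contractile apparatus beyond the rule was lower but by little. None of 21 further genes of smooth muscle contraction reached 4-fold in either direction, and all 21 ratios were below 0, with a median of -0.89. The median was -0.61 for pregnancy cells numbered up to 55, -1.01 for those above 55 and -0.54 with milk genes left out of the totals. Lowest among them were Palld, palladin, an actin-bundling scaffold (386 CPM in adult and 123 CPM in pregnancy cells, log2 ratio -1.65), and Flna, filamin A, which crosslinks actin (1528 CPM in adult and 537 CPM in pregnancy cells, -1.51). The highest were Tgfb1i1, a focal adhesion protein (-0.25), and Synm, an intermediate filament protein (-0.08). Synm stood at -1.65 in the lower-numbered and 0.40 in the higher-numbered cells.

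Genes that anchor basal cells to the basement membrane gave the lowest median among the basal lists. All 10 measured genes of the remaining basal keratins and the hemidesmosome were below 0 (median -1.19; -0.79 and -1.45 in the 2 blocks), and 3 were 4-fold or more lower. Col17a1, the transmembrane collagen of hemidesmosomes, was at 353 CPM in adult and 76.6 CPM in pregnancy cells (log2 ratio -2.20, -2.29 to -2.12) and was detected in 67 of 81 and 44 of 64 cells. Cd151, a tetraspanin that binds laminin-receptor integrins, was at -2.03, and Itgb4, the integrin chain of the hemidesmosome, at -2.38. Its partner chain Itga6 was at 1274 CPM in adult and 735 CPM in pregnancy cells (-0.79), and Lamb3, a chain of laminin-332, at -0.52. Among 13 integrin chains Itgb4 was the only one 4-fold lower and none was 4-fold higher (median -0.67; -0.49 and -1.50 by block). Itgb5 (-1.98) and Itga9 (-1.76) were lowest of those with 50 CPM or more, and Itga1, a collagen-binding chain, was highest at 0.41. The integrin median was 0.09 when cells with luminal markers, defined below, were left out.

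Matrix genes split between the blocks of title numbers. Of 23 basement membrane genes 2 were 4-fold higher and none lower, with a median of -0.38 that was 0.23 in the lower-numbered and -1.03 in the higher-numbered cells. Nid1, nidogen, which bridges laminin and collagen IV, was at 23.7 CPM in adult and 109 CPM in pregnancy cells (2.20; 3.24 and 0.81 by block), and Lama2, a laminin chain of muscle and stroma, had no adult read and 29.5 CPM in pregnancy, 52.2% of it in 1 cell. The lowest were Lama5 (-1.54) and Agrn, agrin (-1.21), whereas Lamc1, the common laminin gamma chain, was at 0.45. Of 28 interstitial matrix genes 8 were 4-fold higher and 1 lower (median -0.10; 0.64 and -1.44 by block). Postn, periostin, a matricellular protein, was at 5726 CPM in adult and 1462 CPM in pregnancy cells (log2 ratio -1.97), with 0, 3655 and 36938 CPM in the lowest, median and highest adult cell and 0, 1136 and 17105 CPM in pregnancy. Tnc, tenascin C, was at -1.63, and Fbln1, fibulin 1, was the gene 4-fold lower (-2.02; -0.65 and -5.87 by block).

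The higher interstitial genes differed in how they depended on cells with markers of other types. Col3a1 and Col1a2, chains of fibrillar collagen, had log2 ratios of 6.88 and 8.63, but 8.30 and 10.06 in the lower-numbered block against 0.04 and 0.59 in the higher-numbered one. Without the 14 pregnancy cells and the 1 adult cell that carried markers of other types they stood at 1.99 and 0.62. Both, like Col1a1, are among the 7 fibroblast markers that helped to choose the cells left out, so that these lower values follow in part from the choice. Of the 5 higher genes that are no markers, Fn1, fibronectin, went from 4.32 to -3.20 without those cells and Thbs2, thrombospondin 2, from at least 8.62 to 2.84. Loxl1 (at least 7.68) had no ratio there, and Plod2, a lysyl hydroxylase, was at 2.71 and 2.73. Matn2, matrilin 2, was higher in both blocks (2.95 and 3.79) and without those cells (3.53). It was detected in 8 of 81 adult and 32 of 64 pregnancy cells, at 12.6 CPM in adult and 146 CPM in pregnancy cells; it was named after its values had been seen.

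Transcription factors of the basal lineage lay below 0 for 14 of 19 measured genes. Of them 3 were 4-fold lower and none higher, with a median of -0.77 (-0.25 and -1.32 by block). Trp63, which encodes p63, the master regulator of basal epithelium, was at 108 CPM in adult and 107 CPM in pregnancy cells (log2 ratio -0.01, -0.09 to 0.07) and was detected in 37 of 81 and 31 of 64 cells. Snai2, encoding Slug, was at 0.19, and Sox9, an epithelial progenitor factor, at 530.4 CPM in adult and 684 CPM in pregnancy cells (0.37). The lower genes were Irx4, a homeobox factor (79.7 CPM in adult and 16.2 CPM in pregnancy cells, -2.30), Bnc1, basonuclin (-3.08, from 636 adult and 34 pregnancy reads), and Lmo1 (-2.15). Id3, an inhibitor of helix-loop-helix factors, was at 268 CPM in adult and 68.8 CPM in pregnancy cells (-1.96) and was detected in 50 adult and 21 pregnancy cells.

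The oxytocin receptor and the sodium channel Scn7a had lower summed levels in pregnancy, whereas their list as a whole was mixed. Oxtr, the oxytocin receptor (gene 18430, chr6:112473683-112491035 on GRCm38.p6), was at 848 CPM in adult and 218 CPM in pregnancy cells (log2 ratio -1.96, -2.01 to -1.91). Its lowest, median and highest cells were 0, 520.1 and 5225 CPM in the adult and 0, 114 and 3439 CPM in pregnancy, and it was detected in 65 of 81 and 45 of 64 cells. The 2 sets of cells overlapped widely, and the ratio was 0.15 without the cells that carried luminal markers. That value pools -1.16 in 5 lower-numbered and 0.82 in 6 higher-numbered cells. Scn7a, a sodium channel chain, was at 2450.5 CPM in adult and 482 CPM in pregnancy cells (-2.35, -2.38 to -2.31; -2.73 and -2.16 by block). Of 18 genes for the oxytocin receptor and calcium or ion channels 3 were 4-fold lower, Scn7a and Cacna1g (-4.92) among them, and 2 were higher, Ryr3 (4.87, 16.9 CPM in pregnancy) and Orai1 (6.94, 14.2 CPM). Of the 18, 12 were below 0 and 6 above, and the median of -0.49 was -0.14 with milk genes left out of the totals and -0.05 with equal weight per cell. The potassium channel chain Kcnma1, at -0.21, and the calcium channel chain Cacna2d1, at -0.46, were highest among those with 50 CPM or more.

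Wnt pathway ligands and receptors held some of the lowest ratios. Lgr5, a receptor for R-spondins, was at 168 CPM in adult and 4.68 CPM in pregnancy cells (log2 ratio -5.17, -5.52 to -4.83). It was detected in 28 of 81 adult cells and in 3 of 64 pregnancy cells, and 94.5% of its pregnancy reads came from 1 cell. The ligands Wnt10a (-5.74) and Wnt6 (-3.65), the receptor Fzd7 (-2.13) and Dkk3, a secreted Dickkopf family protein (-2.36), were the other 4 of 5 genes that were 4-fold lower among 32 of the Wnt and Notch pathways. Wnt10a rested on 13 adult cells, 1 of which held 58.9% of its reads. Notch1 was the gene 4-fold higher (2.12), and Sostdc1, a secreted antagonist of BMP and Wnt, was at 1.17. The list's median was -0.61, with 0.03 in the lower-numbered and -1.10 in the higher-numbered cells. Of 25 secreted growth factors and their binding proteins 2 were 4-fold lower, Ltbp2 and Bmp7 (-3.25), and none was higher (median -0.25; 0.32 and -0.97 by block). Tgfb2 (0.82) and Ccn1, a matricellular protein (0.95), were highest.

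Slpi and Ltbp2 led the genes that were lower in pregnancy. These come from the 12 lowest ratios of genes at or above 100 CPM in the adult cells, detected in at least 50% of them, and with a log2 ratio past 1 in the same direction in both blocks and without the cell of most reads; 137 genes met these limits. Slpi, secretory leukocyte protease inhibitor (gene 20568, chr2:164354070-164356507), was at 7706 CPM in adult and 291 CPM in pregnancy cells (log2 ratio -4.73, -4.77 to -4.68). The lowest, median and highest cells were 0, 5529 and 46269 CPM in the adult and 0, 22.4 and 11027 CPM in pregnancy, and the gene was detected in 76 of 81 and 34 of 64 cells. Most adult cells lay above most pregnancy cells, with overlap through the pregnancy cells of highest level. The ratio was -6.89 in the lower-numbered cells, -4.18 in the higher-numbered cells and -7.35 without cells that carried luminal markers. Ltbp2, a binding protein of elastic microfibrils in the latent TGF-beta binding family (gene 16997, chr12:84783212-84876558), was at 793 CPM in adult and 39.3 CPM in pregnancy cells (-4.34, -4.45 to -4.22). Its cells ran 0, 666 and 5560.3 CPM in the adult and 0, 0 and 399.6 CPM in pregnancy, so that the median pregnancy cell had no read.

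The other 10 of the 12 lowest had log2 ratios between -2.71 and -2.28. They were Map1b, a microtubule-associated protein (1412 CPM in adult and 216 CPM in pregnancy cells), Ak1, adenylate kinase (-2.70), Mical2, an actin-oxidising enzyme (-2.55), Cpne8, a copine (-2.44), Dkk3, Fermt1, kindlin-1, which activates integrins (-2.35), Mme, the membrane peptidase CD10 (693 CPM in adult and 136 CPM in pregnancy cells; -2.35), Scn7a, Msn, moesin, which links actin to the membrane (-2.30), and Rnf122. All 12 were lower in both blocks, as their selection required. Without cells that carried luminal markers they remained below 0, from -7.35 for Slpi to -1.23 for Msn.

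**Figure D2:**
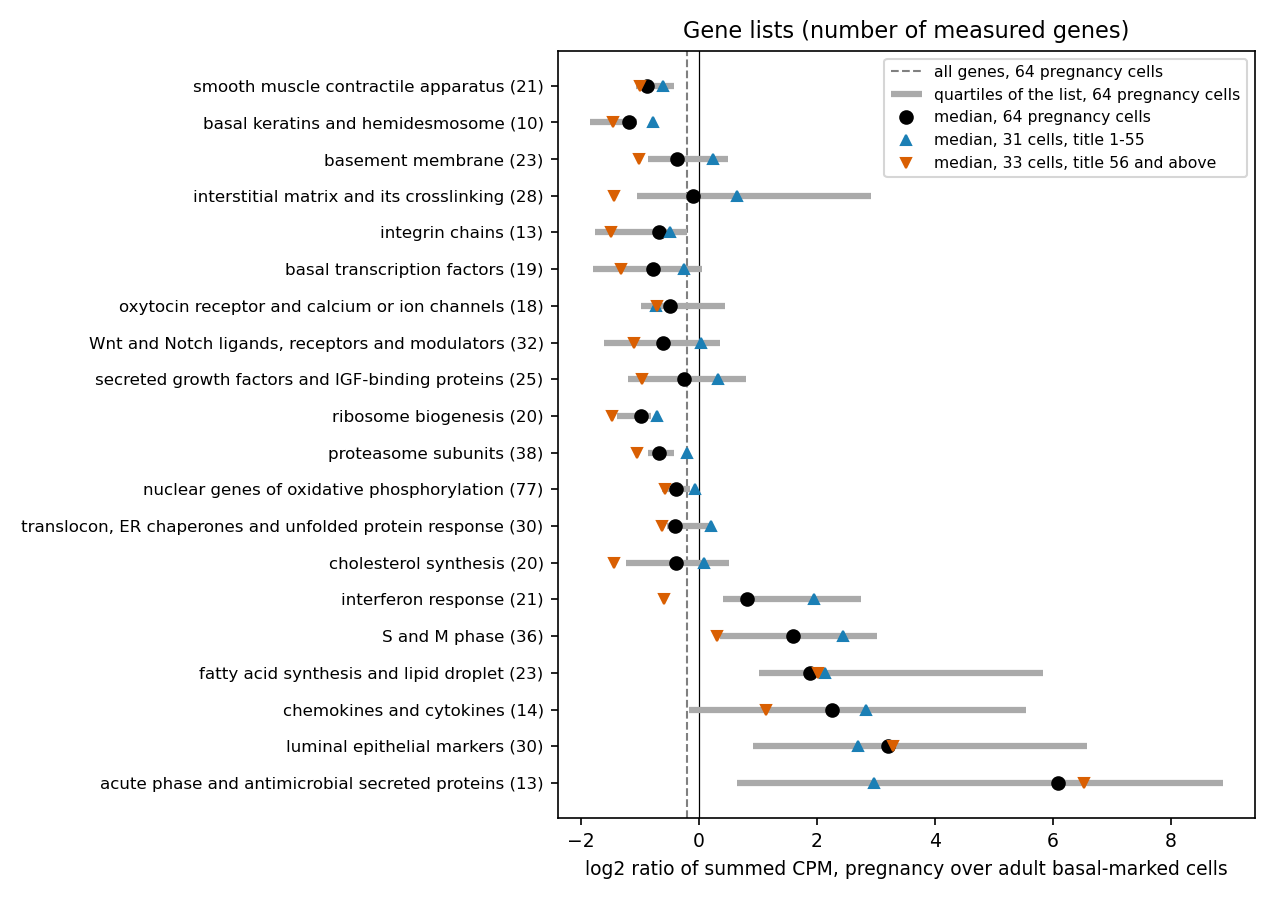
Median log2 ratio of summed CPM, pregnancy over adult basal-marked cells, for 20 gene lists, with the number of measured genes in brackets. Black points are medians over all 64 pregnancy cells, grey bars the quartiles of the list's genes, triangles the medians for each block of title numbers and the dashed line the median of all genes (-0.21); contractile genes lie at -0.89 and acute phase genes at 6.09, and the interferon response lies at 1.96 in one block and -0.60 in the other.

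Milk protein genes had the highest median log2 ratio of all lists (14.94), and their promoters are shown with it because the canonical binding motif of STAT5, the factor that prolactin activates, can be read in some of them. Each line holds the 250 bases before the start listed for the promoter from RefSeq on GRCm38.p6, 5′ to 3′ on the strand of the gene. Matches to the motif TTCNNNGAA are in capitals, and distances are counted from that start. For Csn2 it lies a few bases inside the gene span given further below. The motif reads the same on both strands. Csn1s1 (alpha-S1-casein, chr5:87665958-87666207, plus strand) holds it 100 bases before the start, Csn2 (beta-casein, chr5:87699426-87699675, minus strand) 93 bases before it and Glycam1 (a mucin-like milk glycoprotein, chr15:103565082-103565331, minus strand) 145 bases before it. Csn1s2a (an alpha-S2-casein-like protein, chr5:87774200-87774449, plus strand) and Wap (whey acidic protein, chr11:6638650-6638899, minus strand) hold none in this window.
Csn1s1: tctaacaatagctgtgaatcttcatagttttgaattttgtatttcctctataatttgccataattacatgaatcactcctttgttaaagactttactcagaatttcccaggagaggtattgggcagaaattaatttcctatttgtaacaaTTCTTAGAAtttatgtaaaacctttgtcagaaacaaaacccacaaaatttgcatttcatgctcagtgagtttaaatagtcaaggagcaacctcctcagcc
Csn2: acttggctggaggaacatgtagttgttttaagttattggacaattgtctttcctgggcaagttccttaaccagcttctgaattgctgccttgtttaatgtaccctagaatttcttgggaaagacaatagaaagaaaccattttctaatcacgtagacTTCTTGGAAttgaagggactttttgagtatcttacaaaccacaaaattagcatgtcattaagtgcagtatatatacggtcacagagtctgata
Glycam1: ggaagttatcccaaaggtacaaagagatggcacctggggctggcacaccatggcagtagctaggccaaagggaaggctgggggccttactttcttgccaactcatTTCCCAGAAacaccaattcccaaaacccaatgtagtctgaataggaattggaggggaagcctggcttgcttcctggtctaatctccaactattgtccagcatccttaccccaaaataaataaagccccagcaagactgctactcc
Csn1s2a: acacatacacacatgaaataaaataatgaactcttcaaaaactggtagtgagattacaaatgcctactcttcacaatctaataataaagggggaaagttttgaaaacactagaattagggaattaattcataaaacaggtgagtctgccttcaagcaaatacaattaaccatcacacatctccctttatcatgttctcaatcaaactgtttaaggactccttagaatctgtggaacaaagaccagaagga
Wap: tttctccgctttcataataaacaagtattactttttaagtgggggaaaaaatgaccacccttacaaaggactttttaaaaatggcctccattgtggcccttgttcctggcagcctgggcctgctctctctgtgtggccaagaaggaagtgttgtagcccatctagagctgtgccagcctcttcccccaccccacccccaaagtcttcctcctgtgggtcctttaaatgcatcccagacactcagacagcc
The motif was found in 3 of the 6 milk genes with a promoter in the table and in 1940 of 27025 promoters in all (7.18%). It was in 1 of 23 contractile genes (Palld), in 0 of the 5 with a promoter in the table among the 12 highest genes named below, and in 1 of 10 such genes among the 12 lowest (Mme). The CArG box, the motif of serum response factor, was searched only as CC, 6 bases of A or T and GG, with no mismatch. In that form it was in 2 of the 23 contractile genes with a promoter in the table, out of 28 (Myl9 and Vcl). It was in 0 of 6 milk genes and 378 of all promoters (1.4%). Acta2 and Cnn1 held no such match, but sites with a mismatch were not searched for. Tagln and Myh11 had no promoter in the table.

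All 8 milk genes were more than 4-fold higher in pregnancy. Csn2 (gene 12991, chr5:87692619-87699429) was at 0.694 CPM in adult and 48713 CPM in pregnancy cells (log2 ratio 16.10, 15.53 to 16.74), and its lowest, median and highest cells were 0, 0 and 44.1 CPM in the adult and 0, 4855 and 122438 CPM in pregnancy. It was detected in 4 of 81 and 58 of 64 cells. Csn1s2a took the most reads, at 1.16 CPM in adult and 85619 CPM in pregnancy cells (16.18), and after Csn2 came Csn1s1 (38825 CPM in pregnancy, 13.67) and Csn3, kappa-casein (26287 CPM, 13.69). These 4 caseins were each detected in 58 or more of the 64 basal-marked pregnancy cells. Wap had no adult read and 4149 CPM in pregnancy (a log2 ratio of at least 15.55), and Lalba, alpha-lactalbumin, which takes part in lactose synthesis, had none and 593 CPM (at least 12.74). Glycam1 had 2 adult reads against 11037 CPM (17.54, 15.69 to 20.59) and Csn1s2b had 1 against 598 CPM (14.34, 11.86 to 19.64). Csn1s2b was carried by few cells, with 62.8% of its pregnancy reads in 1. Whether the counting divided reads between the related genes Csn1s2a and Csn1s2b was not tested.

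The share of milk reads varied widely among basal-marked pregnancy cells. It was 0.00108% in the lowest, 1.92% in the median and 64.1% in the highest cell, with 53 of 64 cells at 0.1% or more, 36 at 1% or more, 24 at 10% or more and 2 at 50% or more. In the adult the highest cell had 0.0168%, and 29 of 81 cells had any milk read. Only 1 of the 64 pregnancy cells, the lowest, lay below the highest adult cell. Cells numbered up to 55 gave 7.62% of summed reads (median cell 0.406%) and cells above 55 gave 29.8% (median cell 4.77%). The 32 pregnancy cells that were not basal-marked gave 25.3% of summed reads with a median of 16.3%. Within blocks, the milk genes in basal-marked cells stood between -1.89 and -0.27 on the log2 scale relative to unmarked cells up to number 55, and between -0.87 and 1.15 above it. Csn1s2b, which few cells carried, was both the lowest of the former and the highest of the latter. The other milk genes ran from -1.34 to -0.27 up to number 55 and from -0.87 to -0.03 above it.

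Milk reads went with luminal markers within the basal-marked set. Pregnancy cells with 3 or more of 10 luminal genes (Krt8, Krt18, Krt19, Epcam, Elf5, Ehf, Cldn3, Cldn7, Kit and Wfdc18) at 50 CPM numbered 53 of 64 (82.8%, 71.3 to 91.1), and adult cells 26 of 81 (32.1%, 22.2 to 43.4). The milk share was 23.6% of summed reads in the 53 (median cell 7.48%) and 0.312% in the other 11 (median 0.139%, range 0.0312 to 1.80). Those 11 cells had fewer reads, with a median of 110879 against 221756, and 6 of them carried markers of cell types outside the epithelium. In the 3 pregnancy cells with neither marker set, all of which carried markers of other types, the milk share ran from 0% to 0.159%. It was 0.159% in number 35, 0.0545% in number 55 and 0% in number 56, the only 1 above 55. Number 55 also had 3 rule genes at 50 CPM. Of the 64 basal-marked cells 49 lay above that range, 5 of the 11 with few luminal markers among them, and 15 lay within it. A range of 3 cells whose upper end is 1 lower-numbered cell cannot give the background of either block. In the adult the 26 cells with 3 or more luminal genes had 0.00106% milk reads and the other 55 had 0.000461%.

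**Figure D3:**
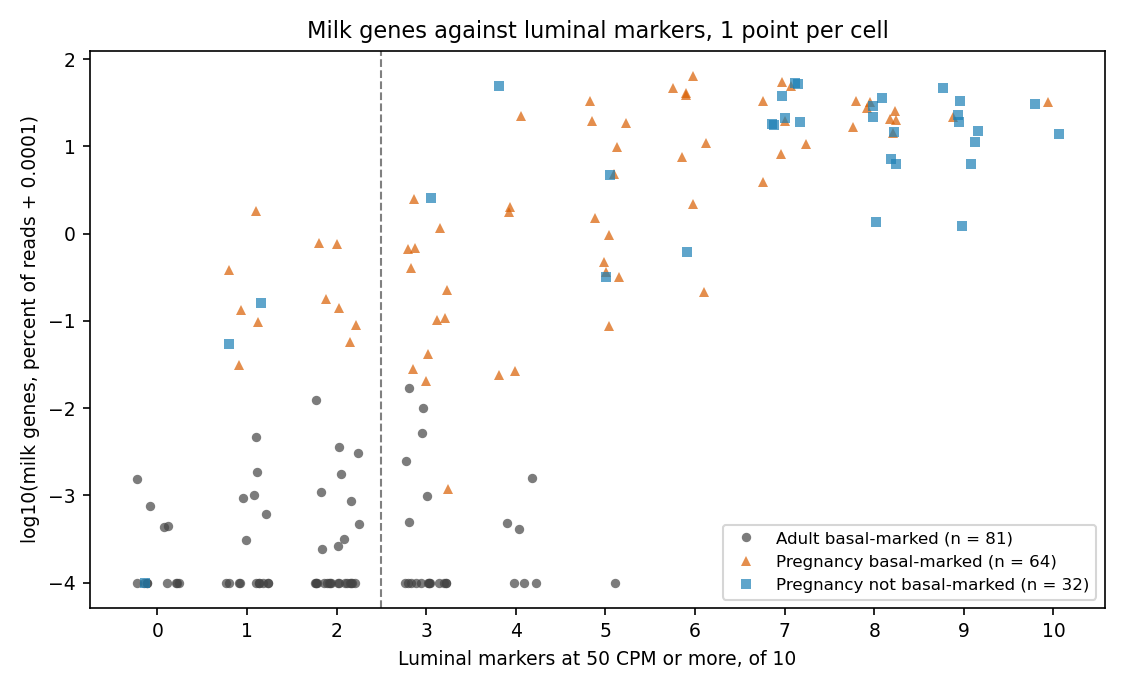
Milk reads of each cell, as log10(percent of reads + 0.0001), against the number of 10 luminal genes at 50 CPM or more, for 81 adult basal-marked, 64 pregnancy basal-marked and 32 pregnancy cells that were not basal-marked (points are shifted sideways at random within 0.25). The dashed line separates cells with under 3 luminal genes, where the 11 basal-marked pregnancy cells reach at most 1.80% milk reads, from those with 3 or more, where the highest reaches 64.1%.

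The basal genes of these 11 cells were compared with those of the 55 adult cells that also had under 3 luminal markers. Several of the lower ratios were then nearer to 0. Myh11 went from -0.71 to 0.08, Myl9 from -0.66 to 0.39, Krt14 from -1.62 to -0.82, Postn from -1.97 to -0.25 and Col17a1 from -2.20 to -0.88. Krt17 stood at -2.62 and Trp63 at 1.19, with 48.7% and 56.4% of their reads in the 11 cells coming from 1 cell each. These values pool 5 cells numbered up to 55, 4 of them with markers of other types, and 6 cells above, 2 of them with such markers, and the 2 sets differed. In the order of lower and higher numbers, the log2 ratio was -0.42 and 0.45 for Myh11, -0.60 and 0.97 for Myl9, -1.83 and -0.23 for Krt14, -1.18 and 0.30 for Postn and -1.95 and -0.27 for Col17a1. Krt17 was at -4.07 and -1.91, and Trp63 at 1.86 and -0.09. All of these but Trp63 were higher in the 6 higher-numbered cells, where Myh11, Myl9 and Postn were above the adult level. Of the reads in the 5 lower-numbered cells, 1 cell held 72.1% for Krt17 and 1 cell 71.1% for Trp63. In the 6 higher-numbered cells 1 cell held 59.0% of the Postn reads. The medians were -0.48 for contractile genes and -0.90 for keratin and hemidesmosome genes, beside -0.05 for all genes. With 11 pregnancy cells, of which 6 carried other cell types' markers, these are the values of few cells.

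General luminal markers were above 0 for 27 of 30 genes. Of these 12 were 4-fold higher in pregnancy and none lower, with a median of 3.21 that was 2.69 and 3.29 by block and 0.48 without cells with luminal markers. Krt8, a keratin of the luminal layer, was at 237 CPM in adult and 332 CPM in pregnancy cells (log2 ratio 0.49; 1.03 and 0.04 by block) and Krt18, its partner, at 188 CPM in adult and 356 CPM in pregnancy cells (0.92; 1.54 and 0.38 by block, and -1.98 without cells with luminal markers, which Krt18 helped to choose). Epcam, the epithelial adhesion molecule, was at 552 CPM in adult and 553 CPM in pregnancy cells (0.00, -0.04 to 0.04). Elf5, a factor of alveolar cells, had all of its adult reads in 1 cell, and the gene was detected in 23 of 64 pregnancy cells (8.59 CPM in adult and 53.2 CPM in pregnancy cells, 2.63). Gata3, a luminal factor, was the lowest of the list at -0.58. Trf, transferrin, was at 248 CPM in adult and 13665 CPM in pregnancy cells (5.79) and was detected in 29 of 81 adult and 58 of 64 pregnancy cells; it was named after its values had been seen.

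Spp1 and Wfdc18 are described first among the 12 highest ratios under the rule for named genes. Spp1, osteopontin, a secreted phosphoprotein (gene 20750, chr5:104435111-104441053), was at 0.347 CPM in adult and 17553 CPM in pregnancy cells (log2 ratio 15.63, 14.82 to 16.58). Its lowest, median and highest cells were 0, 0 and 17.6 CPM in the adult and 0, 1009.6 and 103434 CPM in pregnancy, so that most pregnancy cells lay above every adult cell. Wfdc18, a secreted protein of the WAP domain family (gene 14038, chr11:83709004-83711360), was at 2.81 CPM in adult and 10031 CPM in pregnancy cells (11.80), with 0, 2016 and 37577 CPM in the lowest, median and highest pregnancy cell. Both were still above the adult in the 11 cells with few luminal markers (log2 ratios 9.28 and 7.64; for Spp1 7.13 and 10.10 by block). Wfdc18 is itself 1 of the 10 luminal genes that set those cells apart. Both genes were lower in basal-marked than in unmarked pregnancy cells. The log2 ratio of marked over unmarked cells was -0.63 up to number 55 and -0.17 above it for Spp1, and -1.06 and -0.54 for Wfdc18.

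The remaining 10 had log2 ratios from 7.97 to at least 12.15. They comprised Btn1a1, butyrophilin of the milk fat globule membrane (no adult read, 396 CPM in pregnancy), Car2, carbonic anhydrase 2 (12.10), Tnfaip2, a gene induced by tumour necrosis factor (no adult read, at least 11.06), Pigr, the receptor that carries immunoglobulin A into milk (10.40), Ehf, an epithelial ETS factor (9.72), Cd36, which takes up fatty acids (1.59 CPM in adult and 1259 CPM in pregnancy cells; 9.63), Mal2, of apical transport (9.12), Cd14, a co-receptor for bacterial lipopolysaccharide (8.53), Muc15, a mucin of the milk fat globule (8.27), and Lpl, lipoprotein lipase (7.97). Each was detected in at least 34 of the 64 pregnancy cells and in at most 3 of the 81 adult cells. Cd14 and Tnfaip2 stood as high in the 11 cells with few luminal markers, but 1 cell held 99.7% and 98.7% of their reads there. Muc15 stood at 0.59 in that set.

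**Figure D4:**
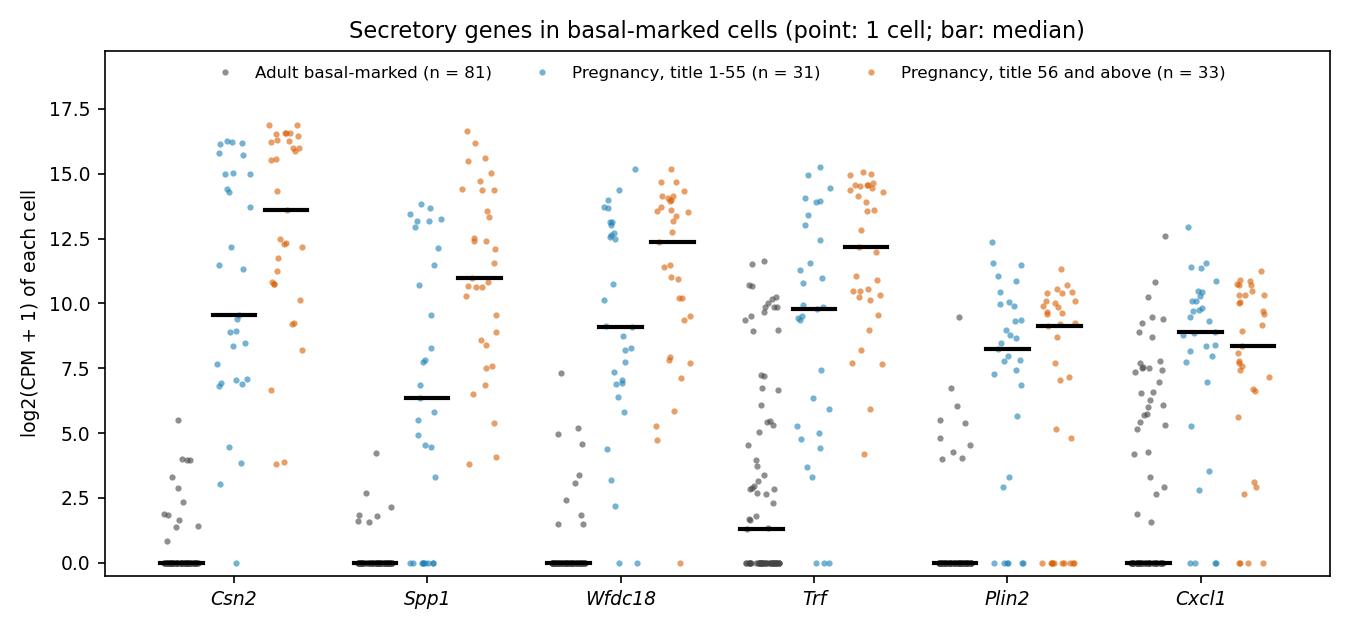
Level of 6 secretory genes in single basal-marked cells, as log2(CPM + 1), in 81 adult cells and in 31 and 33 pregnancy cells with title numbers up to and above 55; points are cells and bars medians. The median pregnancy cell had 4855 CPM of Csn2, 1009.6 of Spp1 and 2016 of Wfdc18 over all 64, where the median adult cell had 0 for each.

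Fat synthesis and droplet genes held 10 genes past 4-fold and cholesterol synthesis none. Of 23 fat genes 10 were 4-fold higher and 1 was lower, with a median of 1.88 (2.13 and 2.01 by block, 1.27 without cells with luminal markers). Besides Btn1a1, Cd36 and Lpl, the highest was Thrsp, a regulator of fatty acid synthesis, with no adult read and 187 CPM. Plin2, the coat of lipid droplets, was at 22.5 CPM in adult and 969 CPM in pregnancy cells (5.43) and Scd1, stearoyl-CoA desaturase, at 32.0 CPM in adult and 1008 CPM in pregnancy cells (4.97; 2.83 and 5.52 by block); both were named after their values had been seen. The related desaturase Scd2 was the gene 4-fold lower (-2.18), and Gpat4, an acyltransferase of glycerolipid synthesis, was at -1.39. Summed over the fat list, basal-marked cells had 637 CPM in the adult and 5645 CPM in pregnancy. Pregnancy cells that were not basal-marked had 9826 CPM. None of 20 cholesterol synthesis genes reached 4-fold, with a median of -0.39 (0.08 and -1.43 by block). Sqle (-1.97) and Cyp51 (-1.88) were lowest and Hmgcs1 (0.45) and Ebp (0.41) highest.

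Members of the prolactin pathway did not differ in 1 direction. Of 14 genes outside the milk proteins 2 were 4-fold higher (Prlr and Elf5) and 1 was lower (Stat5a), with a median of -0.53 (-0.11 and -0.74 by block). Prlr, the prolactin receptor, was at 1.47 CPM in adult and 222 CPM in pregnancy cells (log2 ratio 7.23; 5.94 and 7.66 by block), with 54.4% of its pregnancy reads in 1 cell, and it stood at -0.66 without cells with luminal markers. Stat5a, which the receptor activates, was at 302 CPM in adult and 55.0 CPM in pregnancy cells (-2.46, -2.56 to -2.36; -2.76 and -2.31 by block). It was detected in 40 of 81 and 32 of 64 cells, with medians of 4.97 and 15.7 CPM per cell. The summed reads and the median cell thus differ in direction for Stat5a. Id2, at -1.15, was the next lowest.

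Secreted proteins of the acute phase and antimicrobial defence held both very high and very low ratios. Of 13 genes 8 were 4-fold higher and 1, Slpi, was lower, with a median of 6.09 (2.97 and 6.52 by block). Saa1, serum amyloid A1, had no adult read and 592 CPM in pregnancy, detected in 16 of 64 cells (log2 ratio at least 5.46 in the lower-numbered and at least 13.40 in the higher-numbered cells). Its near copy Saa2 may share its reads. S100a8, a calcium-binding antimicrobial protein, had 1 adult read and 182 CPM (12.62, 10.14 to 17.92). Clu, clusterin, a secreted chaperone, was at 33.3 CPM in adult and 2264 CPM in pregnancy cells (6.09) and Ltf, lactoferrin, an iron-binding milk protein, at 13.8 CPM in adult and 1186 CPM in pregnancy cells (6.42; 3.40 and 7.02 by block); both were named after their values had been seen. Apoe, a lipid carrier, was at -0.73. The list's median was 0.80 without cells with luminal markers. Its summed level was 10380 CPM in adult and 8046 CPM in pregnancy basal-marked cells. In pregnancy cells that were not basal-marked it was 14112 CPM.

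Chemokines and cytokines were above 0 for 9 of 14 genes. Of these 14 genes 7 were 4-fold higher and none lower, with a median of 2.26 (2.83 and 1.13 by block, 1.27 without cells with markers of other types and 2.25 without cells with luminal markers). Cxcl1, a neutrophil chemokine, was at 121 CPM in adult and 974 CPM in pregnancy cells (log2 ratio 3.01, 2.96 to 3.06). Its lowest, median and highest cells were 0, 0 and 6156 CPM in the adult and 0, 470.1 and 7873 CPM in pregnancy. Reads were found in 29 of 81 and 52 of 64 thinned cells. In the 11 cells with few luminal markers, 53.9% of its reads were in 1 cell. Cxcl2, of the same family, was at 9.60 CPM in adult and 403 CPM in pregnancy cells (5.39), and both were named after their values had been seen. The adult and pregnancy cells overlapped for both. Summed over the list, basal-marked cells had 1011 CPM in the adult and 2684 CPM in pregnancy. Pregnancy cells that were not basal-marked had 5249 CPM. Lif, a cytokine of the interleukin 6 family, was at 8.95 (4 adult reads) and Csf3, the granulocyte growth factor, at 6.42. Cxcl14 (154 CPM in adult and 42.0 CPM in pregnancy cells; -1.87) and Cx3cl1, a membrane-bound chemokine (-1.48), were the lowest.

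Interferon response genes and class I antigen presentation were measured as signs of immune signalling. Of 21 interferon genes 5 were 4-fold higher (Iigp1, Gbp7, Ifit2, Rsad2 and Psmb9) and none lower, with a median of 0.82 that was 1.96 in the lower-numbered cells, -0.60 in the higher-numbered cells and -0.34 without cells with markers of other types. Iigp1, an interferon-inducible GTPase, had no adult read and 199.9 CPM, and it was as high in both blocks (at least 11.23 and 11.13). Gbp7, a guanylate-binding protein, was at 31.8 CPM in adult and 215 CPM in pregnancy cells (2.75; 3.45 and 2.09 by block). Ifitm3, a membrane protein that restricts viruses, went the other way at 3281 CPM in adult and 907 CPM in pregnancy cells (-1.86), as did Gbp2 (-1.80). Class I presentation had a median of -0.01 over 12 genes with none past 4-fold, from Tapbp (-0.68) to B2m, beta-2-microglobulin (1289 CPM in adult and 2057 CPM in pregnancy cells; 0.67).

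Proliferation genes were higher in the lower-numbered block. Of 36 genes of S and M phase 10 were 4-fold higher and 1, Mcm2, lower (-2.74, with 97.7% of the adult reads in 1 cell). The median was 1.59, with 2.44 in cells numbered up to 55, 0.30 in those above and -0.12 without cycling cells. The cycling cells were chosen by 10 cycling markers, Mki67 among them, so that the last value follows in part from the choice. Cells with 3 or more of 10 cycling markers numbered 19 of 64 in pregnancy (29.7%, 18.9 to 42.4), against 1 of 81 in the adult (1.23%, 0.0313 to 6.69). Of the 32 pregnancy cells that were not basal-marked 7 were cycling (21.9%, 9.28 to 40.0). By block these were 7 of 14 and 0 of 18, against 17 of 31 and 2 of 33 basal-marked cells. The summed level of the list was 1722 CPM in basal-marked and 741 CPM in unmarked pregnancy cells. Mki67, a marker of dividing cells, was at 32.5 CPM in adult and 161 CPM in pregnancy cells (2.31), and 79.3% of its adult reads were in 1 cell. Rrm2, which makes deoxynucleotides, was at 3.15, while the replication genes Mcm4 (-0.79) and Pcna (-0.53) were lowest among those with 50 CPM or more.

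Lists of general cell function lay near or below the median of all genes. Ribosome biogenesis had a median of -0.99 over 20 genes, 2 of them 4-fold lower (Nop56, -2.26, and Fbl, -2.07, both of the box C/D snoRNP) and none higher. Ncl, nucleolin, was at 3435 CPM in adult and 1159 CPM in pregnancy cells (-1.57), Myc at -0.68 and Nhp2 at 0.15. Proteasome subunits had -0.68 over 38 genes (-0.20 and -1.06 by block), with Psma7 lowest (-1.18) and only Psmb9, an interferon-inducible subunit, 4-fold higher (2.29). The median was -0.54 for 41 translation factors and similarly named genes (1 lower, the methyltransferase Eef1aknmt, -3.58), -0.40 for 77 nuclear genes of oxidative phosphorylation (1 lower, Cox6b2, -2.32), -0.46 for 15 glycolysis genes and -0.41 for 30 genes of the translocon and endoplasmic reticulum. Within the last list the chaperone Hspa5 was lowest, at 2466 CPM in adult and 1316 CPM in pregnancy cells (-0.91), and Xbp1, a factor of secretory cells, highest (1.51). Cytosolic heat shock genes had -0.81 over 12 genes, all below 0, with Hspb1 at -1.97. Immediate early genes had -0.44 over 24, from Fosb at 995 CPM in adult and 369.6 CPM in pregnancy cells (-1.43) to Ccn1 and Klf6 (0.82). With milk genes left out of the totals, these medians were between -0.64 (ribosome biogenesis) and -0.05 (oxidative phosphorylation), against 0.14 for all genes.

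Markers of other cell types were higher in the pregnancy cells, and their part in the results above was not tested. CD31 and CD45, surface markers of endothelial cells and leukocytes, are among those that the Lin– gate of the adult sort excludes. Adult luminal cells, which the study also sorted as Lin–, carried markers of other types too. Of the 41 retained luminal cells, 6 had 3 or more markers of such a type (14.6%, 5.57 to 29.2). Summed over these 41, fibroblast markers were at 1915 CPM and endothelial markers at 137 CPM. What part the gate had was not tested. The summed level of 7 fibroblast markers was 47.2 CPM in adult basal-marked and 1427 CPM in pregnancy basal-marked cells, that of 9 endothelial markers 6.33 and 96.5, of 8 immune markers 16.8 and 265, of 8 pericyte and vascular smooth muscle markers 3.01 and 92.4, of 6 Schwann cell markers 4.83 and 27.2, of 4 erythroid markers 0.868 and 1.60, and of 6 adipocyte markers 19.3 and 601. The immune sum in pregnancy was 714 CPM up to number 55 and 1.43 CPM above it, and its highest cell had 13939 CPM. All 7 fibroblast markers were 4-fold higher (median 6.88), as were 4 of 9 endothelial (5.09), 4 of 7 measured immune (6.62), 3 of 6 measured pericyte (6.06) and 1 of 3 measured adipocyte markers (3.02), while none of 4 Schwann markers (3.01) and the 1 erythroid marker (0.89) did so. Fibroblast markers reached 3 or more in 7 cells, all numbered up to 55, and 4 of these had all 7. Endothelial markers did so in 5 cells, pericyte markers in 4, immune markers in 3 and Schwann markers in 1. The 14 cells concerned had Krt14 between 148 and 4827 CPM and Acta2 between 354 and 23746 CPM. Among defining markers, Lum, lumican, had no adult read and 175 CPM, Col1a1 was at 4.81 (-3.09 above number 55), and the immune marker Cd74 at 3.53, with 96.3% of its pregnancy reads in 1 cell and -0.24 without the top cell of each group. Lyz2, lysozyme, had no adult read and 73.2 CPM, 74.2% of it in 1 cell. Dcn, decorin, a small proteoglycan, stood apart from the other fibroblast markers. It was detected in 11 of 81 adult and 48 of 64 pregnancy cells and was higher in both blocks (4.99 and 2.60) and without cells with other types' markers (2.89). Fabp4, a fatty acid carrier of adipocytes and capillary endothelium, was at 15.5 CPM in adult and 597 CPM in pregnancy cells (5.27). It thus gave most of the summed level of adipocyte markers at both stages. Of the 3 measured adipocyte markers 1 was below 0, and 0 of the 64 pregnancy cells carried 3 or more.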

How the data were processed

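Read counts per gene were analysed for 278 single cells (112 adult basal, 43 adult luminal and 123 pregnancy total epithelium, by their labels). According to the study's methods and the submitters' processing notes, the authors aligned read pairs to mm10 with Subread 1.4.6 and assigned them to genes with featureCounts and the RefSeq annotation built into Rsubread. Cells were freshly sorted, captured on the C1 chip, and libraries made with Nextera XT. The deposited files hold raw whole-number counts for each Entrez gene; they are not normalised, and molecules carried no identifiers. Whether strand was used in counting is not given in the sources used here.

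Symbols for 25275 of 27179 gene IDs, and coordinates, were taken from a RefSeq table on GRCm38.p6, the build of mm10. Unnamed (1904 genes, 1.20% of reads), ribosomal (119, 1.60%) and mitochondrial genes (15, 9.54%) were removed, and 25141 were kept. Retained cells had between 54010 and 1292391 reads in these.

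Counts were summed over the basal-marked cells of a group and expressed as CPM. Genes needed 1 CPM in 3 or more cells for a ratio. Detection means 1 or more reads after thinning a cell to 50000 reads. Each group counted as 1 sample, so no test was run. Named genes were the 12 highest and 12 lowest ratios under the limits given in the text, the rule and milk genes, Krt8, Krt18, Epcam, Elf5, Oxtr and Trp63, and the 2 highest and 2 lowest ratios of each list, where the higher group had at least 50 CPM; others are marked where named or were the few past 4-fold in their list. Members, lists and comparisons were chosen with earlier results of these data known. The ratios and intervals were tested on simulated Poisson counts without spread between cells or PCR copies. That checks the calculation only, not how the intervals hold for these cells. Promoters were read from a RefSeq table, which lacked Csn3, Csn1s2b, Tagln and Myh11 among others. Python 3.11.15, numpy 2.4.6, pandas 2.3.3, scipy 1.17.1 and matplotlib 3.10.9 were used.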

Additional observations from a re-analysis of the deposited data

How the results depend on the processing

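No paired analysis was possible because the labels number cells within a group only and name no animal. The 815 genes that were 4-fold higher became 1247 with title numbers up to 55, 1537 without cells with luminal markers, 2411 with no minimum CPM and 90 with a minimum of 100 CPM. The 705 lower genes became 444 without the cell of most reads in each group, 1503 with title numbers above 55, 1991 without cells with luminal markers, 1142 without cycling cells, 1239 with no minimum CPM and 63 with 100 CPM. The milk share of 21.6% became 11.9% with equal weight per cell or thinned cells, 7.62% and 29.8% in the lower and higher title numbers, 18.8% with 8 or more rule genes, 19.4% with a keratin required, 23.8% without cells with other types' markers and 0.312% without cells with luminal markers, a setting under which 78.6% of the remaining pregnancy cells were basal-marked. Among list medians past 1 on the log2 scale, the direction turned for S and M phase genes without cycling cells (-0.12). The median of immune markers turned above number 55 (-3.84) and without other types' cells (-0.99). Of the 137 named genes, those past 4-fold that turned were Prlr without luminal-marked cells (-0.66), Cd74 and Col1a1. Cd74 turned without the top cells (-0.24), above number 55 (-3.84), without other types' cells (-0.99) and without cycling cells (-3.81). Col1a1 turned above number 55 (-3.09) and without other types' cells (-2.74). Genes outside the 137 were not followed here, and Fn1, given further above, also turned without other types' cells. Counting smaller values too, 14 of 33 list medians and 34 of 137 named genes changed sign under at least 1 alternative. Examples are the interferon median above number 55 (-0.60) and without other types' cells (-0.34) and, without luminal-marked cells, Krt18 (-1.98), Oxtr (0.15), the integrin median (0.09) and the basement membrane median (0.69). For each of these the cause was not tested, beyond the cells each setting leaves out. Those cells were chosen by cycling, luminal or other types' markers, so that lower values of such markers follow in part from the choice. Without cells with luminal markers 55 adult and 11 pregnancy cells remained, without cycling cells 80 and 45, and without other types' cells 80 and 50. TMM scaling put the median log2 ratio of all genes at 0.02. No animal is named, so the spread between animals is unknown, and genes carried by 1 or a few cells are the least secure.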
